A study of Rattus norvegicus with 8 samples.

Results

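The muscle wall of the colon was followed through 10 genes of the smooth muscle contractile apparatus, Myh11, Cnn1, Acta2, Actg2, Tagln, Des, Lmod1, Mylk, Smtn and Synpo2, whose level served as a gauge of how much muscle layer each tissue piece held. A member was taken as measured when a probe of the array could be tied to its rat gene symbol through the probe's RefSeq transcript. By this rule 9 of the 10 genes were measured, by 14 of the 30367 probes, and Synpo2, which codes for an actin-bundling protein of the muscle cell, was not matched to a probe and is not analysed here. All 9 were well above background in all 16 rats and none was saturated, so that all 9 entered the comparison of 19899 genes.

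The samples came from 16 female Wistar rats of 6 weeks of age, of which 4 each received for 3 weeks a standard reference diet (REF), a diet with 10 % cocoa (C10), a diet with cocoa fiber (CF) or a diet with inulin (I), a fermentable plant fructan. RNA was taken from a 5 mm piece of the middle colon of each rat, and the rats were hybridised in pairs of different diets, 1 in the red dye Cy5 and 1 in the green dye Cy3, on 8 arrays of a single slide. The 8 spot medians in Cy5 lay between 302.5 and 426.5 intensity units and those in Cy3 between 109.5 and 169, over backgrounds of 71 to 74 and 21 to 25.5. Between 68.6% and 83.9% of the spots were well above background in each rat. The colon epithelial genes Cdx2, Krt20, Epcam, Slc26a3 and Car1 and the hindgut gene Hoxb13 were well above background in all 16 rats.

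In the gut wall, smooth muscle contracts when calcium and calmodulin activate myosin light chain kinase, which phosphorylates myosin and lets it pull on actin filaments that are anchored in dense bodies and tied together by desmin. The genes of this machinery are switched on together in differentiated smooth muscle cells, largely through serum response factor and its partner myocardin. In the colon most such cells lie in the circular and longitudinal layers of the muscularis externa, with thinner sheets in the muscularis mucosae and around vessels.

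The most marked feature of these genes was a single tissue piece. C10 rat 1 had the lowest signal of the 16 rats for all 9 genes, and I rat 1 had the second lowest for 8 of them. Against the median of the 14 other rats, C10 rat 1 was between 2.23-fold lower (Lmod1) and 11.4-fold lower (Cnn1), and I rat 1 between 1.16-fold lower (Actg2) and 2.0-fold lower (Cnn1). Both were labelled with Cy5, and against the 6 other Cy5 rats alone C10 rat 1 was lower by log2 differences from -1.12 (Lmod1) to -3.28 (Cnn1). Fewer muscle cells in a piece and less RNA of these genes per muscle cell cannot be told apart in such bulk tissue. The values of the C10 diet below rest on 4 rats of which this was one, and the fitted fold changes of C10 against REF are therefore summarised with and without it.

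The motor protein of the muscle is represented by Myh11, the smooth muscle myosin heavy chain. Its log2 signal was 15.91, 15.70, 15.50 and 15.45 in REF rats 1 to 4, 13.12, 15.78, 15.79 and 15.65 in C10 rats 1 to 4, 15.74, 15.49, 15.64 and 15.60 in CF rats 1 to 4, and 14.73, 15.64, 15.46 and 15.65 in I rats 1 to 4. The 3 other C10 rats thus lay within the range of REF, and the 14 rats other than C10 rat 1 and I rat 1 spanned 0.46 on the log2 scale. Mylk, the kinase that switches this myosin on, was at 14.75, 14.85, 14.29 and 14.97 in the REF rats, 12.64, 14.59, 14.69 and 14.60 in the C10 rats, 14.50, 14.79, 14.49 and 14.60 in the CF rats, and 14.13, 14.62, 14.42 and 14.60 in the I rats. All 4 diets overlapped for both genes.

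The thin filament is built from actins, of which Acta2 (alpha smooth muscle actin) and Actg2 (gamma enteric actin) are the smooth muscle forms. Acta2 was the steadiest member outside the 2 low rats, with a range of 0.31 over the 14 others. Its log2 signal was 12.41, 12.37, 12.26 and 12.29 in the REF rats, 10.53, 12.28, 12.24 and 12.13 in the C10 rats, 12.24, 12.32, 12.10 and 12.22 in the CF rats, and 11.66, 12.34, 12.19 and 12.18 in the I rats. Actg2 behaved differently at its upper end. It was at 18.38, 17.15, 16.72 and 17.18 in the REF rats, 14.90, 16.76, 16.88 and 17.19 in the C10 rats, 17.22, 17.01, 17.05 and 16.88 in the CF rats, and 16.82, 17.06, 16.95 and 16.64 in the I rats. REF rat 1 stood 1.16 above the next highest rat on the log2 scale, and I rat 1 was the fifth lowest and not the second. That height depended on the scaling between arrays, being 0.20 above the next rat when all 16 signals were given the same distribution and between 1.04 and 1.33 above it in the other scalings run. Lmod1, leiomodin 1, which helps actin filaments to form in smooth muscle, ranged over the 14 other rats from 7.56 to 8.25, with 6.66 in C10 rat 1 and 7.35 in I rat 1.

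Cnn1 (calponin) and Tagln (transgelin, or SM22) bind actin and mark differentiated smooth muscle. Cnn1 showed the deepest loss of signal in C10 rat 1, with 12.73, 12.74, 12.19 and 12.36 in the REF rats, 8.88, 12.79, 11.95 and 12.10 in the C10 rats, 12.19, 12.76, 12.40 and 12.13 in the CF rats, and 11.38, 12.72, 11.86 and 12.51 in the I rats. The highest of all 16 rats, 12.79, was also of the C10 diet. Tagln was at 15.60, 15.46, 15.05 and 15.39 in the REF rats, 13.05, 15.33, 15.14 and 15.17 in the C10 rats, 15.18, 15.55, 15.26 and 15.10 in the CF rats, and 14.52, 15.32, 14.94 and 15.35 in the I rats. Smtn (smoothelin, a cytoskeletal protein of contractile smooth muscle) ranged from 13.82 to 14.38 over the 14 other rats, with 12.70 in C10 rat 1 and 13.50 in I rat 1. Des (desmin, the intermediate filament of muscle) ranged from 14.35 to 15.10 over the same 14 rats, with 12.33 and 13.99 in the 2 low ones.

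**Figure D1:**
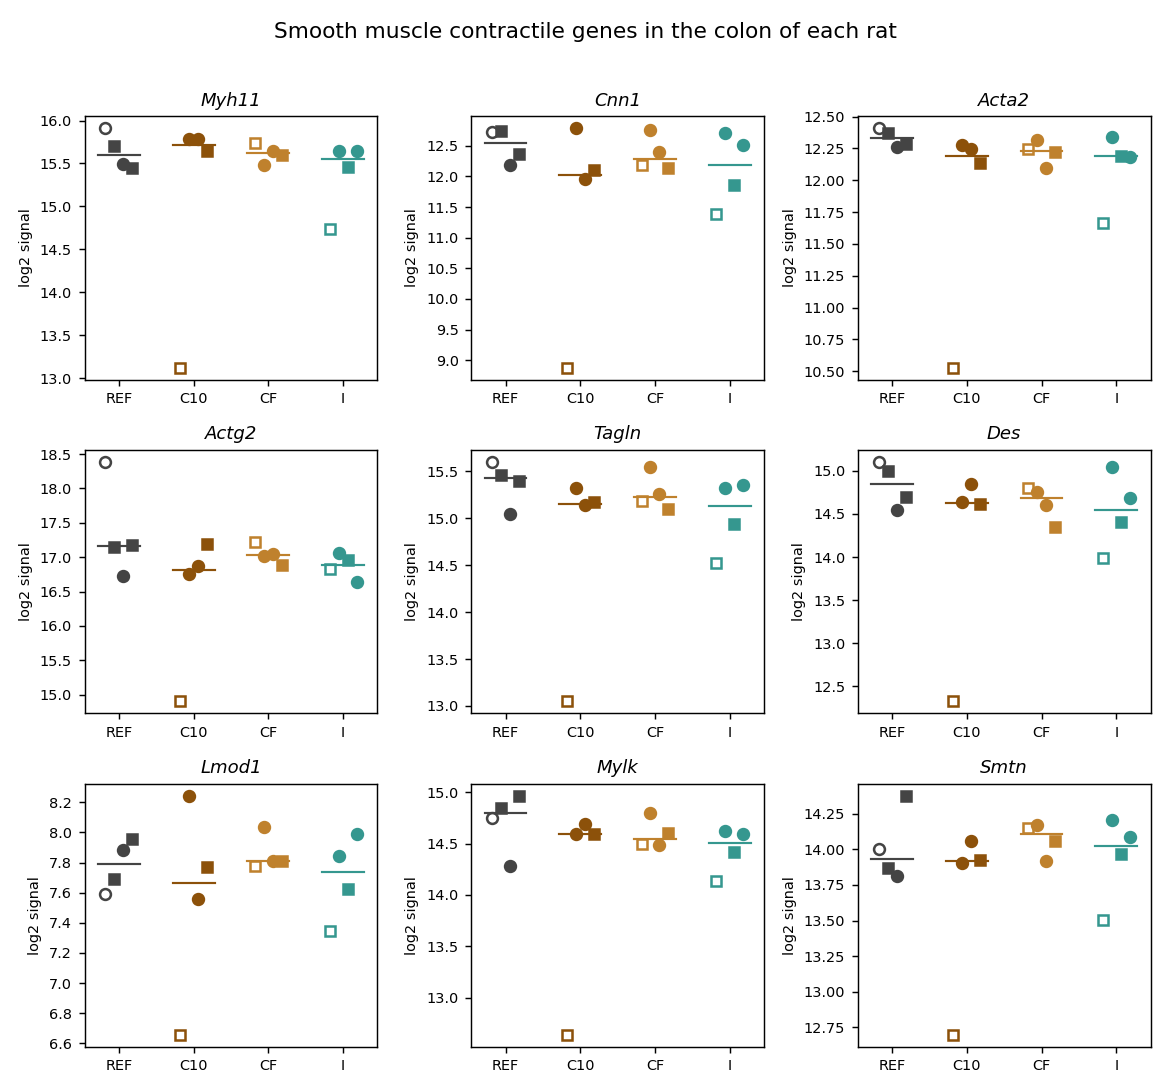
Normalised log2 signal (y axis of each panel, own scale) of the 9 measured smooth muscle genes in each rat, by diet (x axis). Squares are rats labelled with Cy5 and circles rats labelled with Cy3, open symbols are rat 1 of each diet and lines are medians of 4 rats. C10 rat 1 is the lowest rat in all 9 panels and I rat 1 the second lowest in 8.

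Averaged over the 9 genes, these levels give an index of muscle signal for each piece, on the log2 scale and relative to the mean of the 8 rats in the same dye. It was -1.74 in C10 rat 1 and -0.27 in I rat 1, and lay between -0.21 (REF rat 3) and 0.48 (REF rat 2) in the 14 others. Without Aquantile REF rat 3 was lower than I rat 1. Because C10 rat 1 pulls down the mean of the Cy5 rats, the same index was also taken without subtracting the dye means. It was then -1.95 in C10 rat 1, -0.47 in I rat 1 and between -0.052 (I rat 3) and 0.46 (REF rat 1) in the others, so that C10 rat 1 was 4.31-fold and I rat 1 1.55-fold below the median of the 14. By diet this second index was 0.46, 0.28, -0.0046 and 0.26 in the REF rats, -1.95, 0.22, 0.095 and 0.095 in the C10 rats, 0.17, 0.29, 0.11 and 0.051 in the CF rats, and -0.47, 0.28, -0.052 and 0.16 in the I rats. The diets overlapped, and the 3 other C10 rats lay inside the range of REF.

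Across the 36 pairs of the 9 genes the dye-centred signals rose and fell together over the 16 rats, with Pearson's r from 0.52 (Actg2 with Lmod1) to 0.98 (Cnn1 with Tagln) and a median of 0.91, given here as a description. Much of this rested on the low pieces. Without C10 rat 1 the median r over the 15 other rats was 0.59, and without I rat 1 as well it was 0.35 over 14 rats, with r of 0.86 between Cnn1 and Tagln and -0.47 between Actg2 and Lmod1. Tagln followed the mean of the other members most closely, with r of 0.99 (Spearman's rho 0.97) over 16 rats and 0.92 (rho 0.91) over those 14, whereas Lmod1 had r of 0.81 (rho 0.57) over 16 rats and -0.11 (rho 0.015) over the 14. The rats of an array share it, and 2 dyes and 8 arrays underlie these points.

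The spread of the members between rats was wide for this tissue. Within dyes, the SD of a member over the 16 rats was between 0.32 (Lmod1) and 0.85 (Cnn1), against a median of 0.16 over all genes tested, and 89.2% to 98.9% of the genes had a smaller SD than each member. Without C10 rat 1 the members' SDs were 0.17 (Acta2) to 0.41 (Actg2), against a median of 0.15, and between 56.1% and 94.6% of the genes had a smaller SD. The low values were not those of 1 oligonucleotide. In all 14 probes C10 rat 1 was below the median of the other rats, by log2 differences from -1.15 (Lmod1) to -3.49 (Cnn1). The pairs of probes for Lmod1, Myh11, Actg2 and Smtn had r from 0.90 to 0.99 over 16 rats and from 0.70 to 0.98 without C10 rat 1, and the pair for Mylk agreed less, with r of 0.78 over 16 rats and 0.24 without C10 rat 1.

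The comparison of C10 with REF asked whether a cocoa diet changed these genes. In limma's fit of 19899 genes, with dye as a term and array as a block, all 9 had a lower fitted value in C10, with a median log2 fold change of -0.71 against 0.013 over all genes tested. None of the 9 passed an adjusted p of 0.05, where 188 genes, 0.945% of those tested, did, and 6 of the 9 had an unadjusted p under 0.05, as had 17.1% of all genes. The largest differences were those of Cnn1 (log2 fold change -1.26 ± 0.47 SE, adjusted p = 0.193) and Actg2 (-1.17 ± 0.42 SE, adjusted p = 0.177). Both were lower by more than 2-fold in the fit. Over the other settings with 16 rats Actg2 ran from -1.51 to -0.67, the latter when all 16 signals were given the same distribution. With rats left out Actg2 ran from -1.51 to -0.40. Of the other members Des was at -0.93 ± 0.34, Tagln at -0.83 ± 0.31, Mylk at -0.71 ± 0.30, Myh11 at -0.68 ± 0.39 and Acta2 at -0.62 ± 0.24. The 4 rats of C10 and the 4 of REF overlapped in all 9 genes, whereas they did not overlap in 4.63% of all genes. The smallest p of the exact two-sided permutation test of 4 against 4 rats over the 9 genes was 0.0571 (Acta2), where that design can reach 0.0286.

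Without C10 rat 1 these differences shrank. The median log2 fold change of C10 against REF was -0.14, with 7 of 9 genes lower and 2 higher, and 0 had an unadjusted p under 0.05 beside 15.8% of all genes, with 208 genes or 1.05% called over the whole array. Cnn1 was then at -0.33 ± 0.21 (limma, adjusted p = 0.501) and Actg2 at -0.40 ± 0.26 (adjusted p = 0.498), while Myh11 turned from -0.68 to 0.11 ± 0.17 and Lmod1 from -0.20 to 0.10 ± 0.14. The SE of the members fell too, from a median of 0.31 to 0.15, since all 4 diets share 1 estimate of the spread. The means of the 3 other C10 rats were 15.74 ± 0.079 (SD, n = 3) for Myh11 and 12.22 ± 0.076 for Acta2, beside 15.64 ± 0.21 (SD, n = 4) and 12.33 ± 0.069 in REF. REF rat 1, on the same array as C10 rat 1, also bore on the result, and without it the median was -0.51 and the count with an unadjusted p under 0.05 was 0.

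CF against REF asked the same of the cocoa fiber alone. In the fit 8 of the 9 genes were lower in CF, with a median log2 fold change of -0.26 (range -0.60 to 0.075), and 0 were called by limma, as was 0% of all genes, and 0 had an unadjusted p under 0.05, beside 6.38% of all genes. By the plain means of 4 rats 7 were lower and the median difference was -0.11. The 4 rats of CF and REF overlapped in all 9, against no overlap in 1.91% of all genes. In the fit without C10 rat 1 the median was -0.036, with 0 members called and 0.00503% of all genes called, which shows that this rat entered the fit of diets other than its own through the dye and array terms. The value of Actg2 was -0.60 ± 0.45, the only one of the 9 over 1.5-fold in that comparison. Over the other settings with 16 rats it ran from -0.99 to -0.19, the latter when all 16 signals were given the same distribution. With rats left out it ran from -0.98 to -0.11.

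I against REF asked about a soluble fiber. All 9 genes were lower in I, with a median of -0.33 (range -0.53 to -0.099), 0 called by limma and 0 with an unadjusted p under 0.05 (5.71% of all genes), and the diets overlapped in all 9, where 2.04% of all genes did not. No gene on the array was called in that comparison (0%). Leaving out C10 rat 1 gave a median of -0.23, again with 0% of genes called, and without I rat 1 as well it was -0.089, with 7 genes lower and 2 higher, at 0.0503% of genes called.

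Among the 3 treated diets, all 9 genes were lower in C10 than in CF (median -0.47, 0 called against 0.432% of all genes) and than in I (median -0.37, 0 called against 0.548%). Neither comparison had a member with an unadjusted p under 0.05 in limma's fit, where 13.5% and 12.1% of all genes had one. After C10 rat 1 was left out the medians were -0.076 and 0.024, with 0 members called and 0.759% and 0.749% of all genes. CF and I differed by a fitted median of 0.070, with 7 members higher in CF (9 by the plain means, with a median of 0.15), 0 members and 0% of all genes called, and 0 members with an unadjusted p under 0.05 beside 2.83% of all genes; the median was 0.14 without C10 rat 1, at 0% of genes, but turned to -0.047 without I rat 1 and to -0.011 without both, with 8 and 7 members lower in CF. Without both low rats 0 members were called in any of the 6 comparisons, beside 0.905% of all genes for C10 against REF, 0.00503% for CF against REF, 0.834% for C10 against CF, 0.553% for C10 against I and 0% for CF against I. These comparisons share rats and are not independent of each other. All C10 rats were on arrays 1 to 4 and all I rats on arrays 5 to 8, while REF and CF had 2 rats on each of these 2 sets. With the set of arrays as a term the median of C10 against REF was -0.75.

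**Figure D2:**
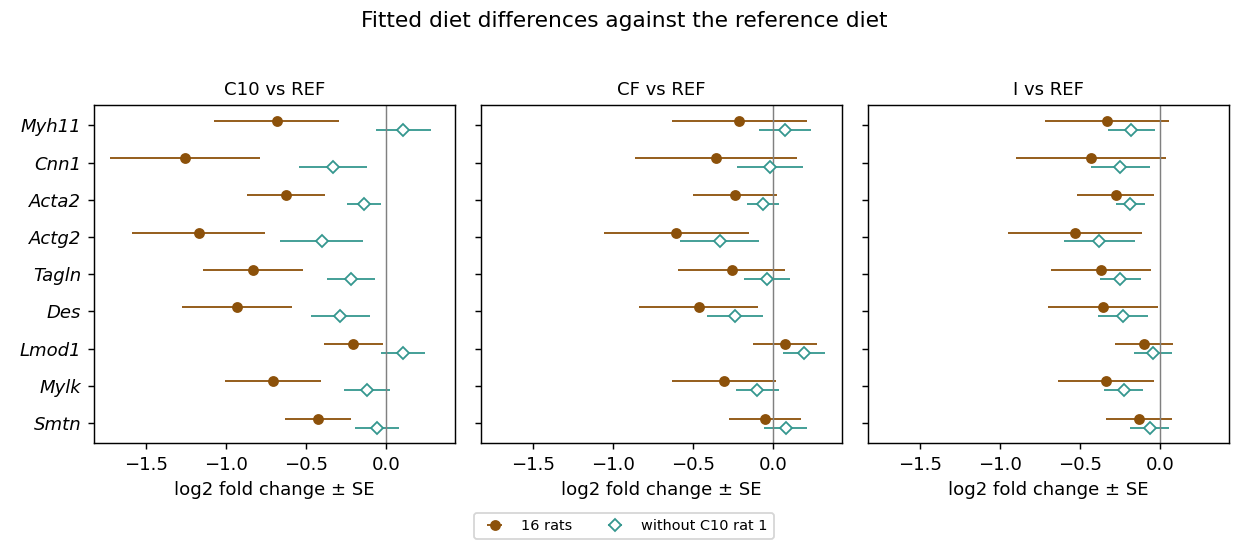
Log2 fold change (x axis) of each measured smooth muscle gene (y axis) from limma's fit of all genes, for C10, CF and I against REF, with bars of 1 SE. Filled circles are the fit of 16 rats and open diamonds the fit without C10 rat 1, in which the 9 values of C10 lie between -0.40 and 0.11.

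Genes of the contractile apparatus beyond the 9 were low in the same piece. Of 34 tested genes for contraction and its control, 28 were below the median of the 14 other rats in C10 rat 1, 10 of them by 2-fold or more, and none was higher by 2-fold. Chrm2, which is among these 10, and Prkg1, Cacnb2 and Atp2b4 were not well above background in that rat. Tpm2 and Tpm1, the tropomyosins that lie along actin, followed the index most closely (r = 0.99 and 0.96 over 16 rats, 0.96 and 0.93 without C10 rat 1), and Tpm2 was at 13.03 in C10 rat 1, 14.74 in I rat 1 and 15.04 to 15.67 in the others. The lowest r were those of Rhoa, a GTPase found in most cells (-0.55), and of Itpr2, a calcium release channel (-0.52). The mean of the list had r of 0.95 to the index over 16 rats, 0.78 without C10 rat 1 and 0.52 without both low rats. Over the same 14 rats the colon epithelium and goblet cell lists each had r of 0.67, so the index did not follow muscle genes alone. In limma's fit 0 of the 34 were called in any comparison, with medians of -0.17, -0.023 and -0.044 for C10, CF and I against REF, and -0.058 for C10 without its rat 1.

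The 26 dense body, anchoring and cytoskeletal genes were all below the median of the 14 others in C10 rat 1, 9 of them by 2-fold or more. Pdlim3 and Tns1, which are not among these 9, were not well above background in that rat. Csrp1, a LIM protein of the actin cytoskeleton, was at 12.18 in C10 rat 1, 13.21 in I rat 1 and 13.35 to 13.94 in the others, with r of 0.97 to the index, and Pdlim7 had r of 0.96. Vim, the intermediate filament of fibroblasts and other mesenchymal cells, had r of 0.20 and Csrp2 of 0.23. The mean of the list had r of 0.96 over 16 rats, 0.82 without C10 rat 1 and 0.63 without both low rats. None of the 26 was called in any comparison by limma, and their medians were -0.28, -0.034 and -0.13 for C10, CF and I against REF, and -0.013 for C10 without its rat 1. Of 13 listed regulators that act upstream 7 were tested. Myocd, the coactivator myocardin, was 1.61-fold and Srf, serum response factor, 1.37-fold lower in C10 rat 1 than the median of the 14. Of the 7 regulators 0 differed by 2-fold, with Gata6 (r = -0.16) and Nkx2-3 (r = 0.085) least like the index. Tead1 was not well above background in C10 rat 1. The normexp offset of 50 shrinks the folds of dim genes such as Myocd, at 6.97 in that rat. The folds of dim regulators and bright contractile genes are therefore not directly comparable. Medians of the 7 were -0.034, 0.018 and 0.0087, and 0.031 for C10 without its rat 1, and 0 were called.

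Among all 11912 other genes with a symbol, those most like the index over the 16 rats were Tpm2, Synm (synemin, a partner of desmin), Art3, Sntg2, Csrp1, Pdlim7, Tpm1, Hacd1, Fxyd6 and Bag2, with r from 0.95 to 0.99. In C10 rat 1 the log2 signal of Art3 differed by -3.69 and that of Synm by -3.01 from the median of the 14 others. The 5 least like it were Trim26, Nfya, Ccl25, Gpbp1 and Ppp4c, with r from -0.89 to -0.84. In all, 64 of 19890 genes (0.322%) had r over 0.9, of which 2 also had it without C10 rat 1. This list is a description of which genes vary with the muscle signal in these pieces, and 1 rat sets most of it.

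Normalisation brings the rats to a common level, so the signals show which genes were low relative to the others in a piece. The raw median of C10 rat 1, 302.5, was the lowest of the 8 Cy5 rats. After normalisation it had 314 genes (1.58%) lower by 2-fold or more and 266 (1.34%) higher than in the 14 other rats, beside 9 of the 9 members lower. I rat 1 had 45 genes (0.226%) lower and 343 (1.72%) higher by 2-fold, with 1 member among the lower ones. The other cell types of the wall did not all go with the muscle. Genes of colon epithelium were close to those of the other pieces in C10 rat 1, with a median difference of -0.039 over 12 genes and 0 lower by 2-fold. Krt19 and Krt8 had the highest r to the index (0.43 and 0.39) and Cdx2 and Krt18 the lowest (-0.24 and -0.064). The mean of the list had r of 0.18 over the 16 rats but 0.65 without C10 rat 1 and 0.67 without both low rats, and in I rat 1 all 12 genes were below the median of the 14 others, 2 of them by 2-fold or more (Car1 and Slc26a3). All 6 goblet cell genes were lower in C10 rat 1, with a median difference of -0.59 and 0 lower by 2-fold, and the list had r of 0.71 to the index (0.68 without C10 rat 1). The median difference was 0.10 over 7 endothelial genes, of which 3 were lower, from Esam at -0.24 to Pecam1 at 0.54.

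Most genes of neurons, whose enteric plexuses lie between and beneath the muscle layers, had low signal with those of the muscle in C10 rat 1. Of 11 neuronal genes 10 were below the median of the 14 others, 6 by 2-fold or more, with a median difference of -1.04. Snap25, which is among these 6, and Elavl3, Nos1 and Ret were not well above background in C10 rat 1, so their folds are uncertain. Uchl1, a deubiquitinating enzyme abundant in neurons, was at 9.28 in C10 rat 1 against 11.25 to 11.91 in the 14 others, and Prph, the neuronal filament peripherin, at 7.89 against 9.96 to 10.53. In I rat 1 these were 11.44 and 9.76, and the median difference of the 11 genes was -0.17. The mean dye-centred level of the list was -0.88 in C10 rat 1, 0.027 in I rat 1 and between -0.23 and 0.30 in the others. Over the 16 rats r of the list to the index was 0.86, with Chat and Stmn2 least like the index (r = -0.23 and -0.10), and without C10 rat 1 r of the list was 0.064. The part of the neuronal genes in these results was not tested.

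Other cells of the wall differed to varying degrees in C10 rat 1. The 6 genes of enteric glia had a median difference of -0.30 with 0 lower by 2-fold, although Sox10 differed by -0.89 on the log2 scale. The 5 genes of interstitial cells of Cajal, the pacemaker cells of the muscle, had a median of -0.33 and 0 lower by 2-fold, with Etv1 (r = 0.76) most and Cd34 (r = -0.015) least like the index. All 7 fibroblast genes were lower, with a median of -0.57, and Dcn (decorin) differed by -1.37. C10 rat 1 was not the lowest here. The mean dye-centred level of the list was -0.61 in C10 rat 1 and -0.76 in C10 rat 3. Dcn was at 12.47 in C10 rat 1 and at 12.42 to 14.33 in the 14 others. Vascular mural cells had a median of -1.08, close to that of the neurons, and r of the list to the index was 0.89 (0.74 without C10 rat 1). Of their 7 genes 4 were lower by 2-fold or more, among them Cspg4 and Abcc9, and Pdgfrb was higher by 0.36. The 3 genes of mesothelium, the outer lining of the wall, were all lower, 1 by 2-fold or more, with a median of -0.30. Wt1 and Bnc1 were not well above background in C10 rat 1, so the size of that median is uncertain. Msln was at 6.86 in C10 rat 1 and between 7.98 and 10.97 in the 14 others. Of 4 adipocyte genes 3 were lower and 1 was not, with 1 lower by 2-fold or more and a median of -0.60. Adipoq was at 6.73 in C10 rat 1 and at 7.09 to 10.69 in the others. Of the 16 striated muscle genes 12 were lower, 3 by 2-fold or more (Tnnc2, Ckm and Casq1), and r of the list to the index was 0.87 (0.46 without C10 rat 1). Tnnc2 and Ckm, a troponin and the muscle creatine kinase, differed by -3.26 and -2.33 and had r of 0.92 to the index, and Actn3 was higher by 1.43. The 4 Hox genes of the posterior colon had a median difference of -0.090.

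For the remaining lists, glia apart, the genes most and least like the index over the 16 rats are named as a description. The 2 highest r were those of Etv1 and Gpr20 in interstitial cells of Cajal, Dcn and Fbln1 in fibroblasts, Esam and Tek in endothelium, Cspg4 and Abcc9 in mural cells, Clca1 and Zg16 in goblet cells, Lipe and Adipoq in adipocytes, Pax5 and Blk in B cells, Cd3g and Lck in T cells, Ms4a2 and Cpa3 in mast cells and Hoxd12 and Hoxd13 among the Hox genes. The 2 lowest, in the same order, were those of Cd34 and Ano1, Pdgfra and Col1a2, Pecam1 and Kdr, Pdgfrb and Higd1b, Spdef and Fcgbp, Cidec and Fabp4, Cr2 and Cd79b, Cd3e and Cd3d, Cma1 and Tpsb2, and Hoxb13 and Hoxd10. In striated muscle Actn3 and Mb were lowest, and the mesothelial genes ran from Msln through Wt1 to Bnc1.

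**Figure D3:**
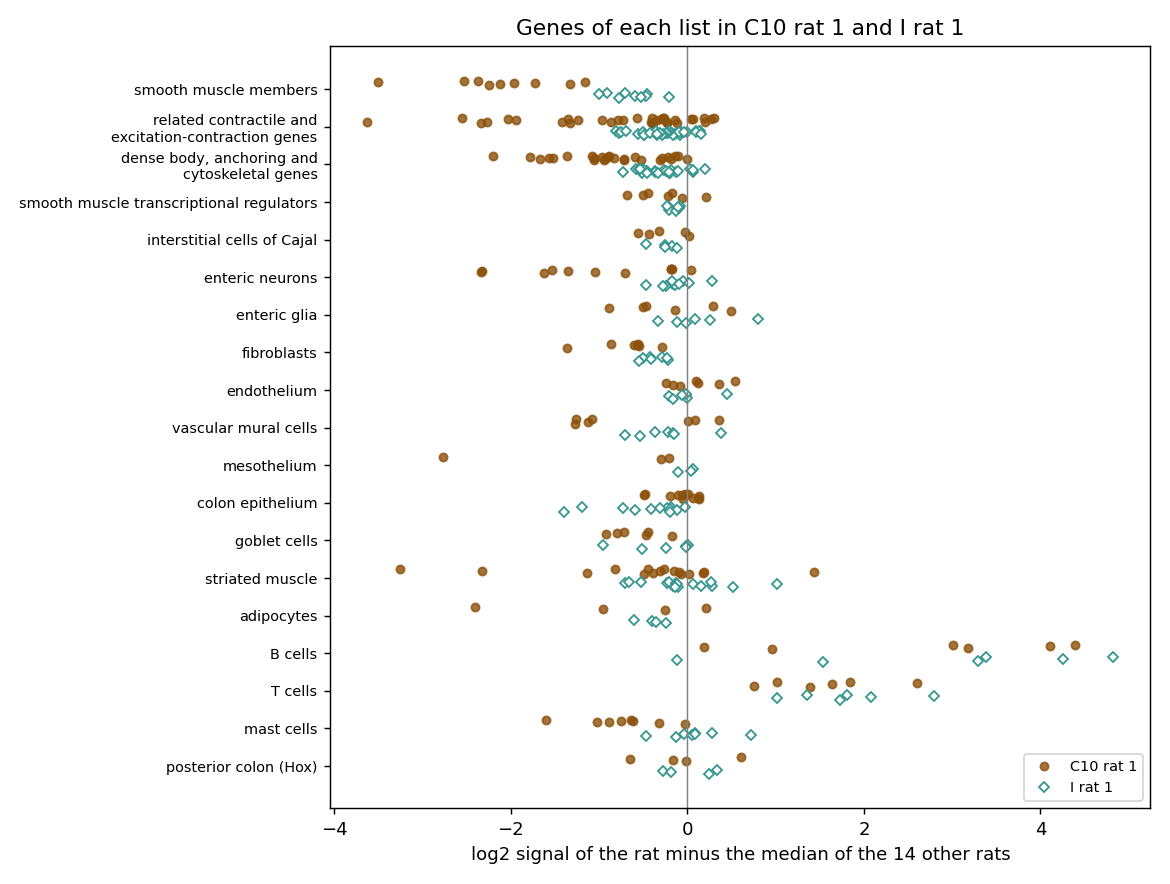
Difference (x axis, log2 signal) of C10 rat 1 (filled circles) and of I rat 1 (open diamonds) from the median of the 14 other rats, 1 symbol for each gene, by list (y axis). The smooth muscle genes lie left of 0 in both rats, 6 of 11 neuronal genes lie beyond a 2-fold decrease in C10 rat 1 alone, and the T cell genes and all but 1 of the B cell genes lie to the right in both.

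Lymphocyte genes ran high in both low rats, as well as in others. Of 6 B cell genes 4 were higher by 2-fold or more in C10 rat 1 and 5 in I rat 1, and of 6 T cell genes 5 and 6. Cd79b, part of the B cell receptor, was at 7.99, 7.11, 11.41 and 7.38 in the REF rats, 11.53, 6.73, 10.10 and 7.0 in the C10 rats, 9.72, 7.11, 11.89 and 7.22 in the CF rats, and 11.67, 7.10, 10.76 and 7.46 in the I rats. High and low rats thus occurred in each diet. The mean dye-centred level of the B cell list was 2.18 in CF rat 3, 1.77 in I rat 1, 1.65 in REF rat 3, 1.55 in C10 rat 1 and 1.21 in I rat 3, then 0.73 in C10 rat 3 and 0.41 in CF rat 1, and -0.16 or less in the 9 others. The muscle index without dye means was 0.11 in CF rat 3, -0.47 in I rat 1, -0.0046 in REF rat 3, -1.95 in C10 rat 1 and -0.052 in I rat 3, so that these 5 rats included the 4 lowest of the 16, though on the dye-centred index I rat 3 was at 0.15 and not among the lowest. The list and the dye-centred index had r of -0.54 over 16 rats (rho -0.68), -0.68 without C10 rat 1 and -0.60 over the 14 others. The T cell list followed the same rats, with 1.38 in CF rat 3, 1.31 in I rat 1 and 1.06 in C10 rat 1, and its least index-like genes were Cd3e and Cd3d, while those of B cells were Cr2 and Cd79b; r of the T cell list to the index was -0.59 over 16 rats and -0.54 over the 14. Both lists split by array. Rats 1 and 3 of each diet, on arrays 1, 3, 5 and 7, had B cell levels between -0.16 and 2.18 and T cell levels between -0.23 and 1.38. Rats 2 and 4, on arrays 2, 4, 6 and 8, had at most -0.91 and -0.48. C10 rat 1 and I rat 1 were both on the former arrays. The parts of the array and of lymphoid tissue in the muscle values were not tested.

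Of the listed genes outside the 9 members, only a few were called by limma in any comparison. Casq1, a calcium store protein best known from striated muscle, was lower in C10 than in REF, with 7.48, 7.95, 7.41 and 7.83 in the REF rats and 6.22, 7.06, 7.09 and 7.08 in the C10 rats, which did not overlap (log2 fold change -0.86 ± 0.14, adjusted p = 0.0149). In C10 rat 1 it was not well above background, so the size of the fold with that rat is uncertain. Without C10 rat 1 it was -0.67 ± 0.13 (adjusted p = 0.0300). Rgs5, a regulator of G protein signalling in pericytes and vascular muscle, was at -0.96 ± 0.21 (adjusted p = 0.0493), but the call was lost without C10 rat 1 (-0.83 ± 0.23, adjusted p = 0.106). Erbb3, a receptor of glia and epithelium, was higher by 0.42 ± 0.083 (adjusted p = 0.0341) and by 0.44 ± 0.097 without that rat, where the difference did not shrink but the adjusted p was 0.0527. The remaining calls were of mast cells, where Cma1, Cpa3, Fcer1a, Hdc, Mcpt1 and Ms4a2 were lower in C10 than in each of the 3 other diets, 6 of 8 tested genes beside 0.945%, 0.432% and 0.548% of all genes called against REF, CF and I, as in Mcpt1 at -2.49 ± 0.32 against REF (adjusted p = 0.00394) and at -2.93 ± 0.29 without C10 rat 1 (adjusted p = 0.000517). Of these, Fcer1a was not well above background in C10 rat 1.

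The genes of the contractile set lie apart in the rat genome (GRCr8), with Cnn1 at chr8:28908437-28917099 and Tagln at chr8:55121647-55127121 as the single pair on one chromosome. Serum response factor binds a motif called the CArG box, and promoter sequences were searched for it as a description. Any link of this motif to the levels in these pieces was not tested. RefSeq promoter windows, of which the 250 bases before the start were searched, were matched for 7 of the 10 genes, but those of Actg2 and Mylk lay 10340 and 36876 bases inside the annotated gene and were not counted. Of the 5 windows within 50 bases of a gene start (Cnn1, Acta2, Des, Smtn and Synpo2) 0 held the strict CArG box, which 1.59% of the 23202 such windows of all genes held, the motif reading the same on both strands. When 1 G or C was allowed in the centre of the box, a choice made after the strict search, it was found in Acta2, which held it at 134 and 84 bases before the start, and in 8.16% of those of all genes. The stretch of Acta2 is shown because it holds both matches, in capitals, at chr1:241172558-241172657 on the minus strand.

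Acta2: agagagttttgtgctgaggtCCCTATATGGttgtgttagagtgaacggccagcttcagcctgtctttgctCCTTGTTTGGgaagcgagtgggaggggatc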

How the data were processed

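The authors hybridised colon RNA of 16 rats in pairs on 8 two-colour Agilent whole-genome arrays and deposited scanner files (Agilent Feature Extraction 10.7.3.1), whose values are linear spot intensity, not normalised. The deposited median signals were background-corrected by normexp (offset 50) and normalised in limma 3.58.1 (R 4.3.3) by spatial loess, intensity loess and Aquantile, giving log2 signals per rat. Spots of a probe were averaged, probes well above background in at least 4 rats were kept (22537 of 30367), and a gene was represented by its brightest probe; 18005 probes carried a symbol through RefSeq. All 16 rats entered 1 fit with diet, dye and array as a block (within-array correlation 0.42), with Benjamini-Hochberg adjustment over 19899 genes; called means an adjusted p under 0.05. Single genes were also compared by exact permutation. The script was tested on simulated data. Named were all members, listed genes called in any comparison, the 2 highest and 2 lowest r of each list except glia, and the 10 highest and 5 lowest of all genes; other listed genes were named after their values were seen. The members and lists were chosen with earlier results of these data known. The rank product test of the study was not run. The table of normalised values was not used here, since its columns could not be tied to labels. Rats were separate animals; the number of arrays limits precision. The alternatives comprised other background offsets, signals, normalisations, filters, probe rules and models, and leaving out rats.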

Additional observations from a re-analysis of the deposited data

Results flagged for a closer look

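In 40 sets of 4 values (the 9 genes and their index in each of 4 diets), 7 had a rat far from the other 3, with a gap to the nearest rat over the critical share of the whole range in Dixon's test for 4 values, where chance gives about 1 in 20. C10 rat 1 was the low rat in 6 of them, with a gap of 0.948 of the range for Myh11, 0.954 for Mylk, 0.917 for Acta2, 0.916 for Tagln, 0.908 for Des and 0.889 for Smtn. CF rat 2 was the high rat for Lmod1, with a gap of 0.859 in a range that was small. These 6 values come from 1 tissue piece and are not independent of each other.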

How the results depend on the processing

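Under the 28 alternatives 0 members were called in any of the 6 comparisons. The smallest adjusted p of a member was 0.0619, for C10 against REF, and the number of members at an unadjusted p under 0.05 in that comparison ran from 0 to 8. With 16 rats the median of C10 against REF lay between -0.88 and -0.58 under the 11 other settings, that of CF against REF ran from -0.47 with log-ratios within arrays to -0.11 without the array block, and that of CF against I turned, from -0.083 to 0.15 in the same 2 settings; the cause was not tested. Leaving out 1 rat or both low rats, the medians ran from -1.0 to -0.14 for C10 against REF, -0.52 to -0.036 for CF against REF, -0.66 to -0.089 for I against REF, -0.87 to -0.047 for C10 against CF, -0.75 to 0.024 for C10 against I and -0.047 to 0.16 for CF against I. The upper end of CF against I came from leaving out I rat 3, and those of the 5 others from leaving out C10 rat 1 or, chosen after seeing the data, both low rats. Myh11 ran from -1.0 to 0.11 for C10 against REF and turned to 0.11 without C10 rat 1 and to 0.082 without both, the 2 reversals among the 11 member values followed. The range of the index over the rats, 2.23, was 2.41 without dye centring, 2.50 without Aquantile, and from 0.47 to 2.23 with rats left out, at 0.78 without C10 rat 1. Centring on the dye median, also added later, gave 2.27. C10 rat 1 had the lowest index in all settings that kept it. I rat 1 was the second lowest in most, but REF rat 3 took that place without Aquantile and without REF rat 2 or REF rat 4. No paired analysis was run apart from the pairs of rats on an array, which entered the main fit as a block and 1 alternative as log-ratios. Replicate numbers were taken only to name the rats, although rats 1 and 3 of each diet were on arrays 1, 3, 5 and 7. Signals well above background and the 4 rats a diet limit what could be detected.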
